A study of Gallus gallus with 28 samples.

Results

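Gene expression in the small intestine of chicks was compared between day 3 after hatch (d3) and day 1 after hatch (d1). The arrays were chosen by their age label, 4 at d3 and 4 at d1, which is 8 of the 28 arrays in the series. All chicks were male, and total RNA was taken from segments of the gut of 6 birds at each age. The design text names the small intestine, although the label for tissue is whole intestine. That text also names 2 lines of birds and 2 sample pools, shared by all ages, but neither is given for any single array. The sources used here do not give diet, feed intake or microbial status. The other ages in the series were embryonic days 18 and 20 (e18 and e20), hatch, and days 7 and 14 after hatch (d7 and d14). Nothing in the labels says that the 4 arrays of an age came from separate birds. The p-values therefore rest on how far arrays of the same age differ among themselves, pooled over all 7 ages. That spread may be technical.

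A newly hatched chick lives partly on yolk, and within days its intestine becomes the only route for nutrients as it begins to eat a diet rich in starch and protein. The epithelium is renewed from crypts at the base of the villi and carries hydrolases and carriers on its brush border, the enzyme-covered surface that faces the food. At hatch the gut also meets its first microbes, and its own lymphocytes are few: T cells arrive from the thymus and B cells from the bursa of Fabricius, while maternal antibody from the yolk gives early protection. Heterophils, the birds' counterpart of neutrophils, and macrophages form the innate defence together with antimicrobial proteins made by the epithelium.

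Each gene was represented by 1 probe set, the one with the highest mean over the 28 arrays, and values are log2 intensities as processed by the authors. Of 13009 named genes, 8396 exceeded log2 4 on 4 arrays or more and were tested. Background was set in each array at the 95th percentile of 541 probe sets whose IDs begin with NC-, which lay at 3.25 to 3.39 in the d3 arrays and at 3.37 to 3.54 in the d1 arrays. The number of arrays limits the precision. Enterocyte genes were high in all 8 arrays, which fits the tissue label: the microvillus protein gene VIL1 lay at 12.57 to 12.93 in the d3 arrays, against 12.55 to 13.03 in the d1 arrays, and SI, the sucrase-isomaltase gene, at 14.11 to 14.73 in the d3 arrays, against 14.21 to 14.37 in the d1 arrays. The pancreatic hormone gene INS was not above background in any of the 8 arrays, and the pancreatic enzyme genes CPA1 and CPB1 stood at 6.03 and 5.50 in d3 replicate 1 and at 4.34 or below in the other 7 arrays. Of 14 exocrine pancreas genes tested, 12 were above background in d3 replicate 1 and 10 in each of d1 replicates 3 and 4. In the other arrays 3 to 7 were above it. The first principal component, with 56.5% of the variance over the 8 arrays, separated d3 from d1. The second, with 16.6%, separated replicates 1 and 2 from 3 and 4 at both ages, and the labels name nothing that does so. Replicate numbers in this report follow the order of the sample records within an age. The labels link no array of an age to an array of another.

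A measure of RNA quality differed between the groups, and its part in the results below was not tested. For 3 control transcripts the array carries probe sets at the 3′ and the 5′ end, and a larger 3′ minus 5′ difference goes with RNA that was less complete or less fully copied. It was lower at d3 for all of them: 1.69 to 2.28 at d3 against 2.73 to 3.35 at d1 for beta-actin, −0.03 to 0.23 against 0.57 to 0.74 for GAPDH, and 0.63 to 0.91 against 1.25 to 1.44 for EF1-alpha. The hatch arrays, at 1.48 to 1.88, −0.25 to 0.00 and 0.28 to 0.60, were nearer to d3 than to d1. Counts are also given with this difference as a term in the fit; the term and the age move together between d1 and d3, so the effects of the 2 overlap. They are given as well with the 4 hatch arrays in place of the 4 d1 arrays, against the same d3 arrays. Both settings were added after seeing the data. Genes whose calls were lost with the term are named with their log2 difference in that fit in brackets.

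**Figure D1:**
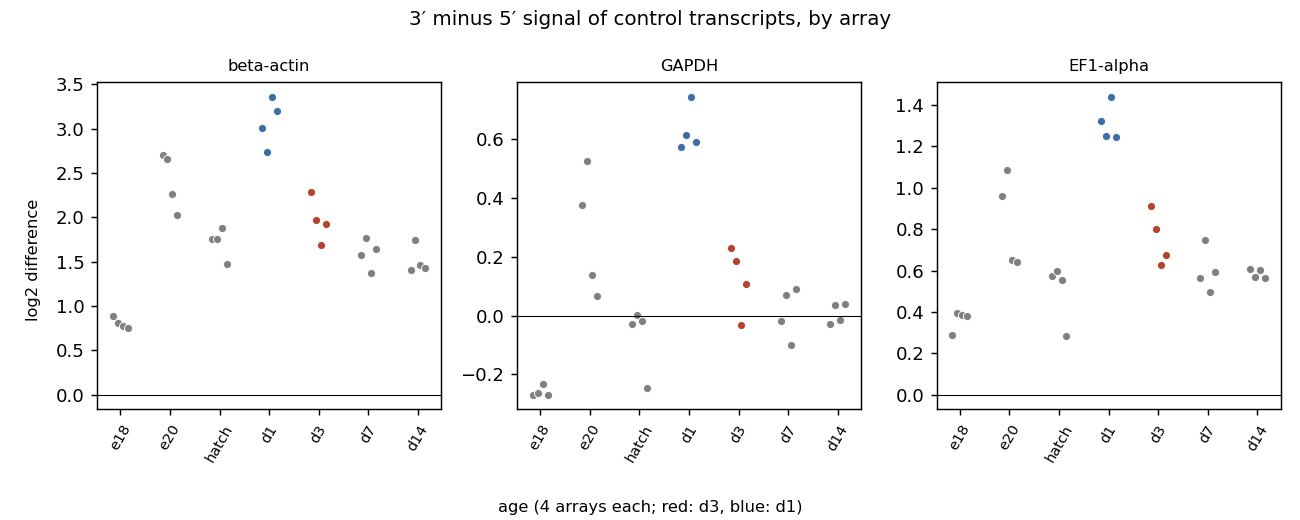
Log2 difference between the 3′ and 5′ probe sets of 3 control transcripts (panels) in each array, by age from e18 to d14; each point is an array, with d3 in red and d1 in blue. The 4 d3 arrays lie below the 4 d1 arrays in every panel, and the d1 arrays are the highest of the series.

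Of the 8396 genes tested, 2160 (25.7%) were called at an adjusted p under 0.05 (limma, Benjamini-Hochberg over all genes), 1263 higher (15.0%) and 897 lower (10.7%) at d3. More than 2-fold differences made up 284 of the higher calls (3.38% of genes tested) and 113 of the lower (1.35%). The 4 d3 arrays lay wholly to one side of the 4 d1 arrays for 2244 genes (26.7%), and 1707 (20.3%) were both called and separated in this way. The median difference over all genes tested was 0.00. The split depended on scaling: after quantile normalization 1041 genes were higher and 1175 lower (47.0% of calls higher, against 58.5% as deposited), and after centring each array on its median 1022 were higher and 1209 lower (45.8%). Under the 3′ minus 5′ term 557 genes were called, 282 higher and 275 lower. Against hatch 3127 were called (37.2%), 1262 higher (15.0%) and 1865 lower (22.2%).

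The intervals on each side give a measure of the step from d1 to d3. Between hatch and d1 2959 genes were called (35.2%), 1051 higher (12.5%) and 1908 lower (22.7%), and between d3 and d7 1130 (13.5%), 426 higher (5.07%) and 704 lower (8.38%). Neighbouring intervals share the arrays of 1 age, so their changes are tied in sign and are given below side by side.

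Genes of immune cells and immune responses were mostly higher at d3, and genes of fuel metabolism, digestion and detoxification were more often lower. The immune lists held 203 genes named on the array, of which 125 were tested; 75 rose and 3 fell. The metabolic lists held 459 genes, of which 361 were tested; 43 rose and 96 fell. These counts stand beside 15.0% higher and 10.7% lower over all genes. In the fit with the 3′ minus 5′ term they were 29 and 1 for the immune genes and 11 and 49 for the metabolic genes; against hatch they were 84 and 1, and 70 and 114. Genes below background in all d1 arrays, such as GZMA and LYG2, passed the filter through other ages and had little room to fall. The balance of rises and falls can therefore depend in part on the filter and on this floor. With no filter 72 immune genes rose and 5 fell, and 40 metabolic genes rose and 96 fell. Leaving out the filter gives genes at the floor no more room to fall, so the part of the floor was not tested. In intact tissue more cells of a type and more RNA per cell cannot be told apart.

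**Figure D2:**
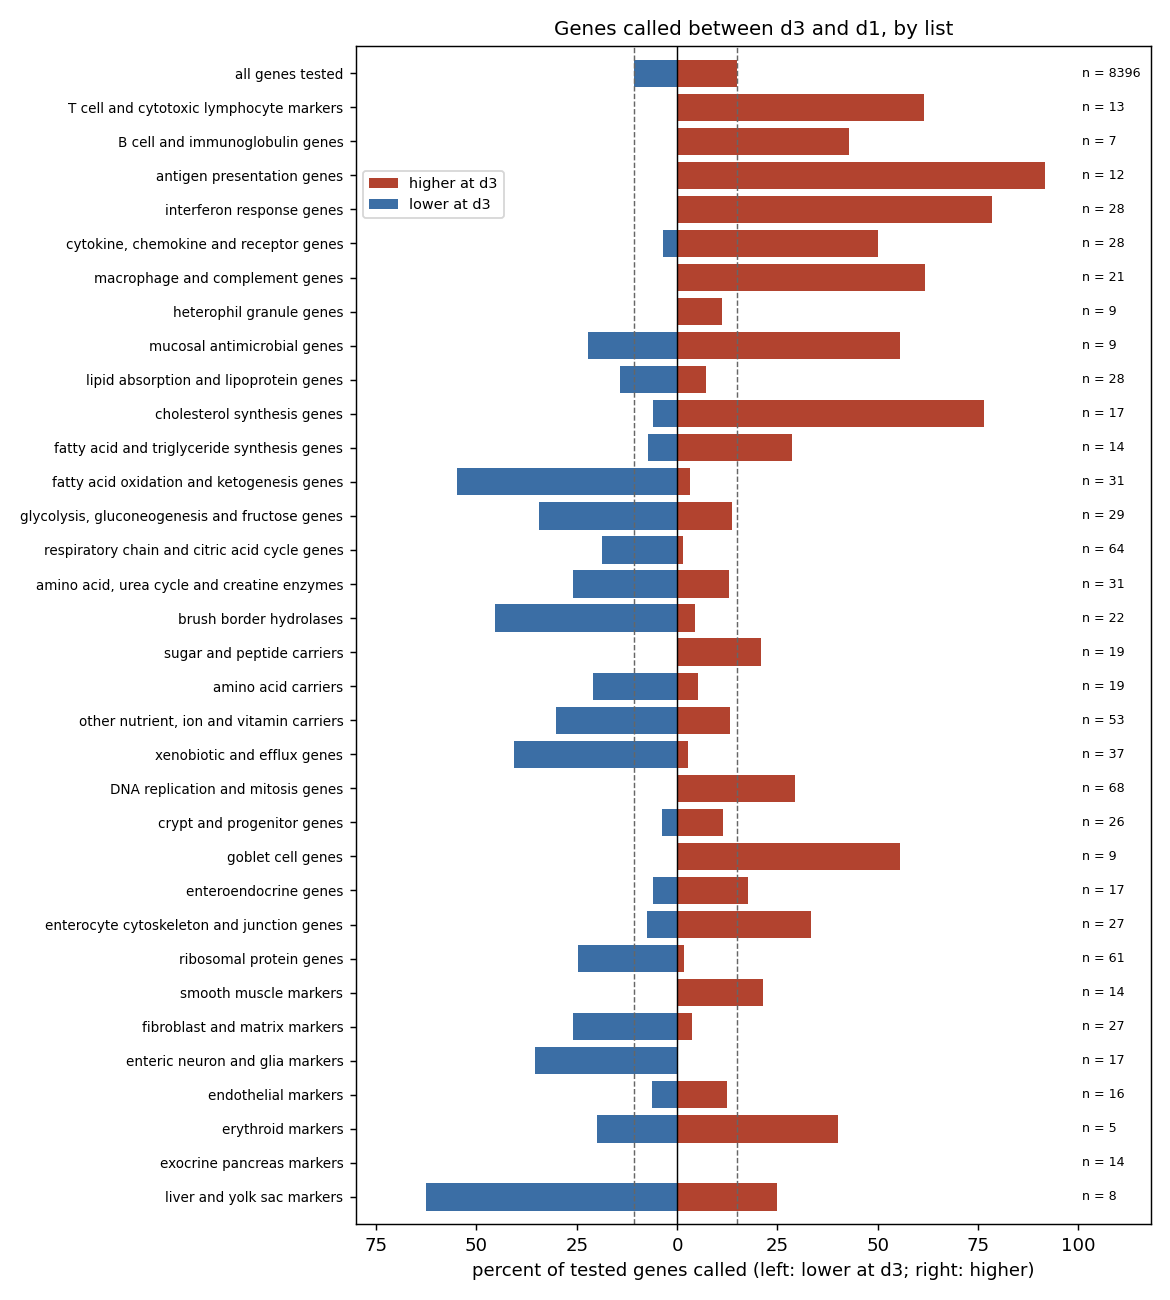
Percent of the genes tested in each list that were called higher (right, red) or lower (left, blue) at d3 than at d1, with the number tested at the right edge and dashed lines at the shares over all 8396 genes. The bars of the antigen presentation, interferon response and cholesterol synthesis lists reach farthest to the right, and those of liver and yolk sac markers, fatty acid oxidation, brush border hydrolases and xenobiotic genes farthest to the left.

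Transcripts of T cells and of cytotoxic lymphocytes were higher at d3. Of 20 such genes on the array 13 were tested, and 8 rose and none fell, with a median difference of 1.12. GZMA, a protease in the granules of killer lymphocytes, stood at 8.21, 8.42, 8.86 and 10.01 in the d3 arrays, against 2.52, 2.58, 2.84 and 2.88 in the d1 arrays. All 4 d1 arrays were below background, so the level was at least 42.8-fold higher at d3 (adjusted p = 1.24e-14), counted from each d1 array's background. The CD3 chains carry the signal of the T cell receptor: CD3D stood at 7.51, 8.32, 8.40 and 8.72 in the d3 arrays, against 5.94, 5.94, 5.82 and 6.07 in the d1 arrays. Its rise was 2.29 ± 0.22 (SE, adjusted p = 4.38e-08). CD3E stood at 6.98, 7.51, 7.74 and 8.10 in the d3 arrays, against 5.45, 5.43, 5.77 and 5.48 in the d1 arrays. Its level rose by 2.05 ± 0.22 (SE, adjusted p = 2.57e-07). Every d3 array of these genes lay above every d1 array. The 8 that rose also included PTPRC (CD45, found on all white blood cells) by 1.47 ± 0.16 (SE, adjusted p = 4.90e-07), IL2RG, the shared receptor chain for interleukin 2 and its relatives, by 1.43 ± 0.18, and TARP, a T cell receptor gamma transcript, by 1.32 ± 0.23 (SE, adjusted p = 0.000135). CD247, a further signalling chain of the T cell receptor, rose by 1.12 ± 0.24 (SE, adjusted p = 0.00107), and CD44, an adhesion receptor of activated lymphocytes, by 1.11 ± 0.20 (SE, adjusted p = 0.000211). The co-receptor gene CD8A, the kinase genes LCK and ZAP70, and CD28 were on the array but below the filter and were not tested. Against hatch 8 T cell genes were likewise higher, and with the 3′ minus 5′ term 6 were called higher. Levels rose again by d7, when 11 of the 13 genes were above d3 and none below; CD3E then changed by 1.73 ± 0.22 (SE, adjusted p = 7.27e-06) and GZMA by 2.37 ± 0.26 (SE, adjusted p = 8.35e-07). CD247 (0.64) and CD44 (1.19) lost their calls with the 3′ minus 5′ term, with adjusted p 0.0605 to 0.412.

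Among B cell genes, those for antibody chains were not yet above background at d3. Of 17 on the array 7 were tested, and 3 rose and none fell. PIGR, the epithelial receptor that carries secreted antibody into the gut lumen, stood at 8.59, 7.89, 8.93 and 7.89 in the d3 arrays, against 4.74, 4.14, 6.43 and 6.00 in the d1 arrays. The d3 level was higher by 3.00 ± 0.34 (SE, adjusted p = 7.83e-07), and no d1 array reached the d3 range. BTK, a kinase of B cell receptor signalling that myeloid cells also use, rose by 0.91 ± 0.17 (SE, adjusted p = 0.000356), and XBP1, which drives the secretory programme of plasma cells and of epithelium, by 0.36 ± 0.09 (SE, adjusted p = 0.00401). The immunoglobulin light chain gene IGLL1 stood at 3.11 to 3.17 in the d3 arrays, against 3.13 to 3.32 in the d1 arrays, and JCHAIN, which joins secreted antibodies into polymers, at 2.58 to 2.63 in the d3 arrays, against 2.60 to 2.67 in the d1 arrays, so neither was above background at either age. Both rose after d3: IGLL1 by 5.27 ± 0.27 (SE, adjusted p = 1.67e-12) and JCHAIN by 4.93 ± 0.26 (SE, adjusted p = 1.67e-12) between d3 and d7. CD79B, PAX5 and CR2 were below the filter. XBP1 (0.12) lost its call with the 3′ minus 5′ term, with adjusted p = 0.709.

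Nearly all antigen presentation genes that were tested rose. Of 20 on the array 12 were tested and 11 rose, with a median difference of 1.11 and none lower. BF2, the major chicken class I gene, stood at 12.79, 13.20, 12.08 and 11.87 in the d3 arrays, against 10.61, 10.67, 10.11 and 9.98 in the d1 arrays. The rise was 2.14 ± 0.49 (SE, adjusted p = 0.00204). Its partner B2M (beta-2-microglobulin) rose by 1.32 ± 0.12 (SE, adjusted p = 4.09e-08), and the peptide pump genes TAP2 and TAP1 and their docking protein TAPBP by 1.07 ± 0.16, 1.15 ± 0.30 and 1.18 ± 0.13. On the class II side, BLB1, the beta chain that shows peptides to helper T cells, stood at 12.25, 12.02, 12.35 and 12.71 in the d3 arrays, against 10.74, 10.32, 10.68 and 10.64 in the d1 arrays. Its rise was 1.74 ± 0.12 (SE, adjusted p = 2.48e-10). CD74, the invariant chain that guides class II molecules, stood at 12.40, 12.59, 12.71 and 12.86 in the d3 arrays, against 10.84, 10.39, 10.86 and 10.77 in the d1 arrays. It rose by 1.92 ± 0.12 (SE, adjusted p = 1.60e-11), with SDs of 0.19 at d3 and 0.22 at d1. The peptide exchange gene DMA rose by 1.02 ± 0.21 (SE, adjusted p = 0.000734) and the lysosomal protease gene CTSS by 1.08 ± 0.12 (SE, adjusted p = 4.58e-07). With the 3′ minus 5′ term 7 of the 12 were called higher, and against hatch 11. From d3 to d7 the class II genes CD74 and DMA rose further, by 1.65 ± 0.12 (SE, adjusted p = 4.92e-10) and 2.07 ± 0.21 (SE, adjusted p = 2.07e-07), while the changes of B2M (0.23 ± 0.12 SE, adjusted p = 0.227) and BF2 (0.23 ± 0.49 SE, adjusted p = 0.813) did not pass the test. TAP1 (0.97) and DMA (0.15) lost their calls with the 3′ minus 5′ term, with adjusted p 0.329 to 0.845.

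Interferon response genes, which cells switch on against viruses and after cytokine signals, mostly rose. Of 33 on the array 28 were tested; 22 rose and none fell, with a median of 1.26. Their spread between arrays of an age was wide, so large differences had large errors. These errors take in the spread at all 7 ages. The list mean ran from 6.44 to 7.48 over the d1 arrays and from 8.06 to 8.65 over the d3 arrays. It ran from 5.97 to 7.61 over the hatch arrays and from 8.09 to 9.63 over the d14 arrays. IFIT5, which binds foreign RNA, stood at 10.55, 10.40, 10.38 and 9.63 in the d3 arrays, against 6.46, 8.48, 6.58 and 4.14 in the d1 arrays. Its level rose by 3.82 ± 0.86 (SE, adjusted p = 0.00183). RSAD2 (viperin, an antiviral enzyme) stood at 6.61, 6.53, 6.23 and 5.32 in the d3 arrays, against 3.13, 3.21, 3.10 and 3.21 in the d1 arrays. Its d1 arrays were all below background, and it was at least 6.57-fold higher at d3 (adjusted p = 0.00217). EPSTI1, an interferon-induced gene, stood at 8.32, 8.01, 6.95 and 6.10 in the d3 arrays, against 4.74, 5.18, 3.04 and 2.58 in the d1 arrays. The d3 level was higher by 3.46 ± 0.66 (SE, adjusted p = 0.000384). The d1 arrays of IFIT5 spanned over 4 log2 units and those of EPSTI1 over 2, with replicate 2 the highest and replicate 4 the lowest in both. For MX1, an antiviral GTPase, the groups overlapped at 8.63, 8.97, 8.33 and 6.99 in the d3 arrays, against 6.19, 7.18, 4.79 and 3.19 in the d1 arrays; the rise of 2.89 ± 0.89 (SE, adjusted p = 0.0181) had an adjusted p of 0.0511 without d3 replicate 2, 0.0505 without d1 replicate 3 and 0.0921 without d1 replicate 4. OASL, a relative of the enzymes that sense double-stranded RNA, overlapped as well, and its rise of 2.25 ± 0.76 (SE, adjusted p = 0.0329) was not called when any one of d3 replicates 1, 2 and 3 or d1 replicates 1, 3 and 4 was left out, with adjusted p between 0.0545 and 0.118, or with no filter (0.0539). Among the regulators, IRF1, a transcription factor of the interferon response, stood at 10.70, 10.65, 11.17 and 10.83 in the d3 arrays, against 9.27, 9.26, 9.32 and 9.21 in the d1 arrays. The rise was 1.57 ± 0.17 (SE, adjusted p = 4.39e-07). SOCS1, a brake on interferon signalling, rose by 2.90 ± 0.35 (SE, adjusted p = 1.41e-06). Under the 3′ minus 5′ term 4 of the 28 genes were called, with a median of 1.17, and against hatch 26 rose. Of the 28 none was higher at d7 than at d3 and 6 were lower, among them RSAD2 (−2.73 ± 0.69 SE, adjusted p = 0.0105) and CMPK2, a nucleotide kinase induced beside it (−2.29 ± 0.49 SE, adjusted p = 0.00289). IFIT5 (4.08), RSAD2 (3.25), EPSTI1 (4.04), MX1 (3.35) and OASL (2.29) lost their calls with the 3′ minus 5′ term, with adjusted p 0.053 to 0.379.

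Of 50 cytokine, chemokine and receptor genes on the array, 28 were tested; 14 rose and 1 fell, with a median of 0.50. IL8L2, a chemokine that attracts heterophils, stood at 6.81, 5.64, 6.97 and 5.25 in the d3 arrays, against 2.79, 3.17, 2.99 and 3.16 in the d1 arrays. It was below background in all d1 arrays and at least 6.54-fold higher at d3 (adjusted p = 1.75e-06), and its d7 level was lower again (−1.77 ± 0.38 SE, adjusted p = 0.00307). XCL1, a chemokine of activated T and natural killer cells, stood at 5.59, 5.87, 5.44 and 5.64 in the d3 arrays, against 2.57, 2.59, 2.74 and 2.98 in the d1 arrays. No d1 array was above background, and the level was at least 4.52-fold higher at d3 (adjusted p = 5.06e-11). TNFSF15, a cytokine of the tumour necrosis factor family, was at least 4.62-fold higher (adjusted p = 1.58e-09). The chemokine genes CCL20 and CCL19, which draw lymphocytes and dendritic cells to mucosal and lymphoid sites, rose by 1.68 ± 0.33 (SE, adjusted p = 0.000493) and 0.94 ± 0.25 (SE, adjusted p = 0.00758). IL15 (0.51 ± 0.23 SE, adjusted p = 0.111), which sustains intraepithelial lymphocytes, IL18 (0.65 ± 0.26 SE, adjusted p = 0.0699) and the chemokine receptor gene CXCR4 (0.24 ± 0.41 SE, adjusted p = 0.734) did not pass the test, although IL15 did in a fit of the 8 arrays alone (adjusted p = 0.0273) and IL18 in the mean over its probe sets (0.0454). The gene that fell was TGFB2, a growth factor that restrains immune responses, by 0.86 ± 0.26 (SE, adjusted p = 0.0148); its call was lost without d3 replicate 2 (adjusted p = 0.0573) or 3 (0.0813) and in a fit of the 8 arrays alone (0.077), and with the 3′ minus 5′ term it differed by 0.032. That term left 4 of the list called higher and none lower. IFNG, IL1B, IL6, IL10, IL17A and IL22 were below the filter and were not tested. CCL20 (1.5) and CCL19 (0.71) lost their calls with the 3′ minus 5′ term, with adjusted p 0.153 to 0.402.

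Among macrophage and complement genes, 21 of 35 on the array were tested; 13 rose and none fell, with a median of 0.79. The 3 chains of C1q, which starts the classical complement pathway and is made mainly by macrophages, rose together: C1QC stood at 5.67, 5.36, 6.67 and 5.96 in the d3 arrays, against 3.81, 3.67, 3.70 and 3.86 in the d1 arrays. Its rise was 2.15 ± 0.31 (SE, adjusted p = 1.86e-05), C1QA rose by 1.76 ± 0.30 (SE, adjusted p = 0.000109) and C1QB by 1.65 ± 0.27 (SE, adjusted p = 7.05e-05). SPI1, the transcription factor of myeloid cells, rose by 1.83 ± 0.23 (SE, adjusted p = 3.02e-06), ITGB2, the shared chain of the leukocyte integrins, by 1.51 ± 0.15, and FCER1G, a signalling chain of antibody receptors, by 1.22 ± 0.21. In the fit with the 3′ minus 5′ term 3 were called higher, and against hatch 17 of 21. C1QA, SPI1 and FCER1G rose further by d7, by 1.17 ± 0.30 (SE, adjusted p = 0.0107), 1.86 ± 0.23 (SE, adjusted p = 6.09e-06) and 1.21 ± 0.21 (SE, adjusted p = 0.000529). C1QC (0.97), C1QA (1.05), C1QB (0.60) and SPI1 (0.99) lost their calls with the 3′ minus 5′ term, with adjusted p 0.129 to 0.449.

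Heterophil granule genes were on average near background at both ages. Of 14 on the array 9 were tested, and only EXFABP, a lipocalin that binds bacterial iron carriers, rose, by 1.82 ± 0.49 (SE, adjusted p = 0.00773). It stood at 5.74, 5.89, 6.25 and 5.40 in the d3 arrays, against 4.62, 4.43, 3.92 and 3.03 in the d1 arrays. The median of the 9 was −0.02, and between 3 and 5 of them were above background in any d3 array. In the d1 arrays 3 or 4 were above it, and at e18 all 9. The list mean was 9.97 at e18, against 3.97 at d3 and 3.54 at d1. A gene can pass the filter through the 4 e18 arrays alone. Members near the floor at both ages can show little difference, so the median says little about them. LYZ, the lysozyme gene, stood at 3.33, 4.20, 5.38 and 6.45 in the d3 arrays, against 2.21, 2.26, 4.82 and 5.57 in the d1 arrays. The groups overlapped, and the difference did not pass the test (1.12 ± 1.06 SE, adjusted p = 0.487). Of 11 erythroid genes on the array, which mark red blood cells, 5 were tested. Among these 2 rose, 1 fell and 2 were not called, with a median of 0.18. The 2 that rose were the globin genes HBA1, by 2.53 ± 0.36 (SE, adjusted p = 1.54e-05), and HBAD, by 2.32 ± 0.38 (SE, adjusted p = 7.18e-05). No heterophil or erythroid gene was called with the 3′ minus 5′ term. TFRC, the transferrin receptor of iron uptake, which red cell precursors carry, fell by 0.96 ± 0.20 (SE, adjusted p = 0.000887). The summed intensity of the 5 erythroid genes tested was 4696 to 8144 in the d3 arrays and 2349 to 3128 in the d1 arrays, and the part of blood in the immune differences was not tested. EXFABP (1.70), HBA1 (1.32), HBAD (1.04) and TFRC (−0.53) lost their calls with the 3′ minus 5′ term, with adjusted p 0.213 to 0.415.

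Antimicrobial and oxidant-producing genes of the mucosa gave some of the largest rises, while a beta-defensin fell below background. Of 17 on the array 9 were tested; 5 rose, 2 fell, and the median was 2.62. LYG2, a goose-type lysozyme, stood at 9.24, 9.83, 10.47 and 9.63 in the d3 arrays, against 3.10, 3.43, 3.20 and 3.44 in the d1 arrays. All d1 arrays were below background, and the level was at least 80.7-fold higher at d3 (adjusted p = 1.24e-14). It had also been high at e18 (10.74 ± 0.75, mean ± SD, n = 4 arrays) and stood at 2.55 ± 0.08 at e20. LYGL, a further lysozyme gene of that kind, lay at 8.18 to 12.58 in the d3 arrays, against 4.87 to 7.75 in the d1 arrays. The groups did not overlap, and the rise was 4.84 ± 1.01 (SE, adjusted p = 0.000939). AVD, the biotin-binding protein avidin, stood at 10.44, 10.45, 11.94 and 10.12 in the d3 arrays, against 5.91, 6.06, 5.40 and 5.33 in the d1 arrays. Its level rose by 5.06 ± 0.68 (SE, adjusted p = 6.62e-06). NOX1, the epithelial NADPH oxidase, stood at 6.94, 6.25, 6.73 and 6.23 in the d3 arrays, against 3.11, 3.41, 3.13 and 2.93 in the d1 arrays. With its d1 arrays below background, NOX1 was at least 8.46-fold higher (adjusted p = 3.65e-11). Its organiser subunit NOXO1, outside the list, was at least 32.2-fold higher (adjusted p = 3.26e-06), with d3 replicate 3 at 9.11 and replicate 4, the lowest, at 7.14, and it dropped again by d7 (−3.98 ± 0.68 SE, adjusted p = 0.000397). RNASE6, a secreted ribonuclease with antibacterial action in mammals, rose by 2.62 ± 0.20 (SE, adjusted p = 7.59e-10). The beta-defensin AvBD10 ran the other way at 2.38, 2.91, 2.13 and 2.35 in the d3 arrays, against 6.29, 5.90, 4.85 and 7.29 in the d1 arrays. It was below background in every d3 array and at least 6.89-fold lower (adjusted p = 4.18e-08). LEAP2, an antimicrobial peptide gene of liver and gut, fell by 0.91 ± 0.17 (SE, adjusted p = 0.000255). With the 3′ minus 5′ term 4 were called higher and 1 lower. In none of these genes did a d3 array overlap a d1 array. LYGL (5.04) and LEAP2 (−0.66) lost their calls with the 3′ minus 5′ term, with adjusted p 0.117 to 0.215.

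**Figure D3:**
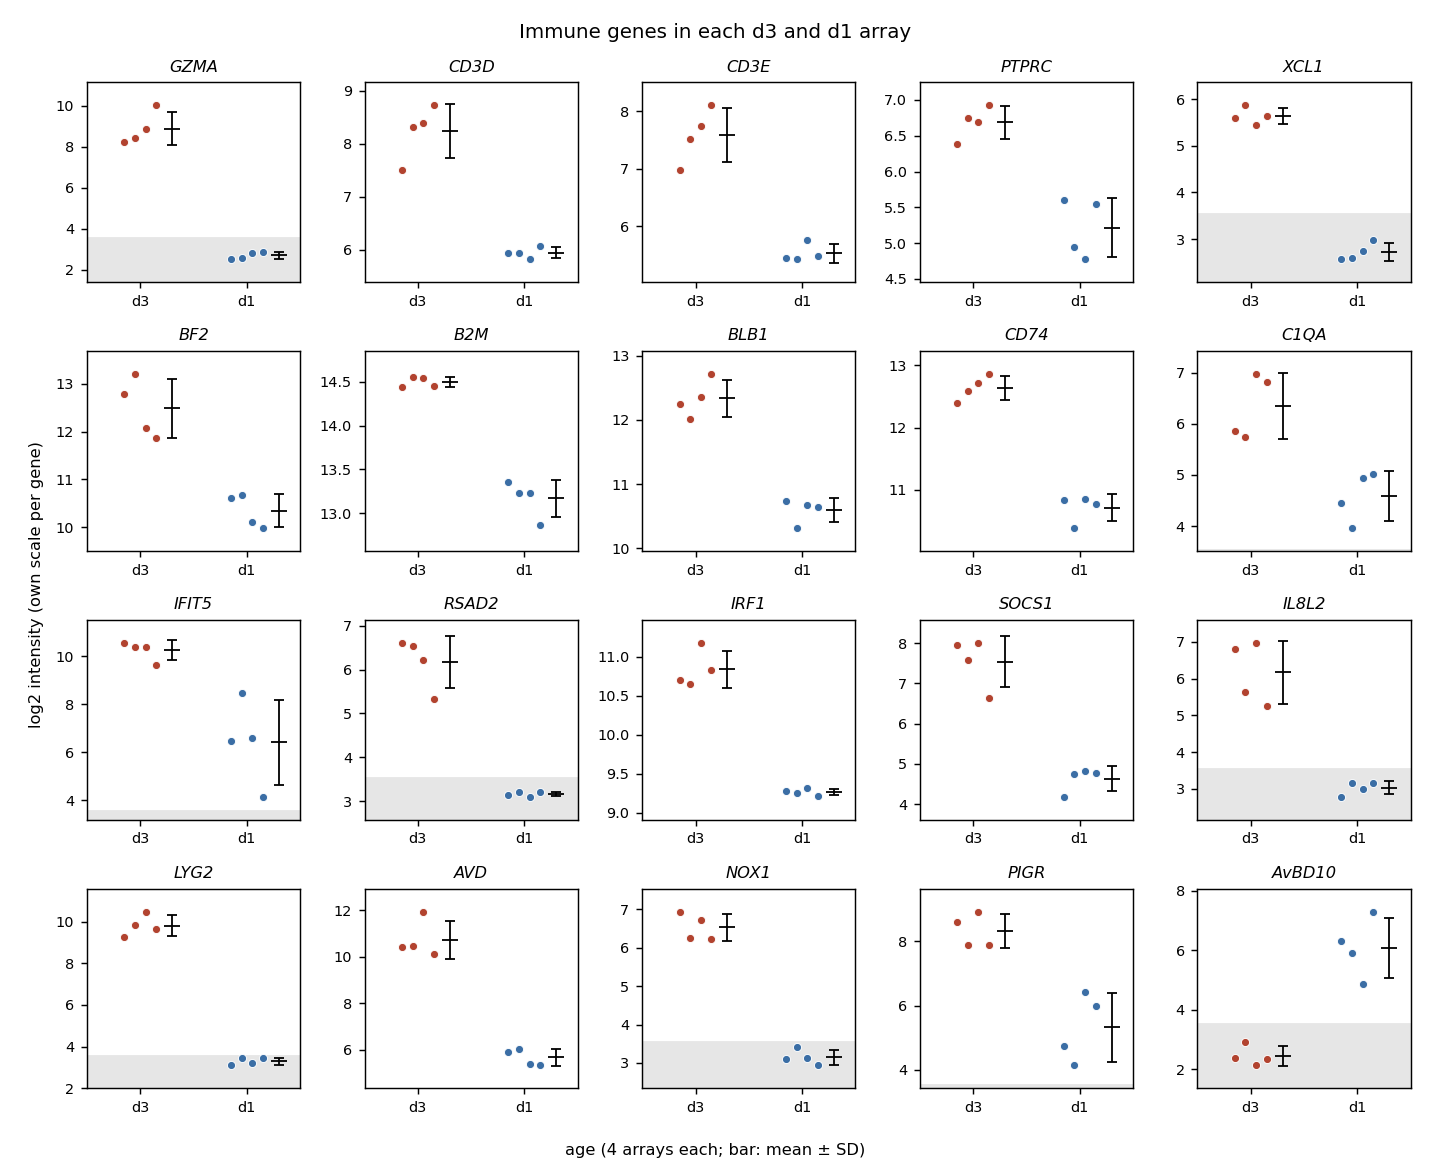
Log2 intensity of 20 immune genes in each array at d3 (red, left) and d1 (blue, right), with the mean ± SD beside the points and each gene on its own scale; grey marks values under the highest background of the 8 arrays, 3.54. In 19 panels the d3 points lie above the d1 points without overlap, and for AvBD10 they are the lower ones.

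Several of the 12 largest rises lay outside these lists. GATD3AL2 stood at 15.02, 14.60, 15.18 and 14.51 in the d3 arrays, against 8.46, 9.28, 8.72 and 7.65 in the d1 arrays. The d3 level was higher by 6.30 ± 0.46 (SE, adjusted p = 5.67e-10). PDCD1LG2, a ligand that dampens T cells through the receptor PD-1, stood at 8.41, 7.55, 9.13 and 7.68 in the d3 arrays, against 2.69, 2.86, 2.78 and 2.62 in the d1 arrays. With its d1 arrays below background, PDCD1LG2 was at least 26.6-fold higher (adjusted p = 2.06e-12). SOCS3, an inhibitor of cytokine signalling induced through STAT3, stood at 8.43, 7.57, 8.19 and 6.83 in the d3 arrays, against 2.88, 2.32, 2.90 and 2.42 in the d1 arrays. With its d1 arrays below background, SOCS3 was at least 19.6-fold higher (adjusted p = 9.12e-11). BATF3, a transcription factor of dendritic cells and activated lymphocytes, rose by 3.88 ± 0.36 (SE, adjusted p = 4.07e-08). ACOD1L, whose name marks its likeness to the gene for the itaconate-making enzyme of macrophages, was at least 8.72-fold higher (adjusted p = 2.41e-06), and LOC428714 at least 23.7-fold higher (adjusted p = 9.31e-09). PLAC8L1 rose by 4.24 ± 0.74 (SE, adjusted p = 0.000165), with d3 replicates 1 and 2 at 11.80 and 11.49 and replicates 3 and 4 at 8.15 and 7.99. Of this group PDCD1LG2 (−1.23 ± 0.30 SE, adjusted p = 0.0075), SOCS3 (−1.31 ± 0.34 SE, adjusted p = 0.0123) and BATF3 (−1.55 ± 0.36 SE, adjusted p = 0.00605) were lower at d7 than at d3.

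Most cholesterol synthesis genes that were tested rose. Of 22 genes on the array 17 were tested; 13 rose and 1 fell, with a median of 0.69. SQLE, the squalene epoxidase, stood at 9.72, 9.24, 9.70 and 8.66 in the d3 arrays, against 7.18, 7.96, 7.17 and 6.22 in the d1 arrays. The rise was 2.20 ± 0.36 (SE, adjusted p = 7.05e-05). HMGCS1, which makes the precursor of mevalonate, stood at 9.11, 8.49, 8.96 and 8.31 in the d3 arrays, against 7.23, 7.83, 7.38 and 6.62 in the d1 arrays. Its rise was 1.45 ± 0.22 (SE, adjusted p = 3.92e-05). FDFT1, which commits the pathway to sterols, rose by 1.68 ± 0.23 (SE, adjusted p = 1.16e-05), and MSMO1, which removes methyl groups from the ring, by 1.41 ± 0.22 (SE, adjusted p = 4.26e-05). INSIG1, a sterol-sensing brake that is itself switched on by the pathway's activator, rose by 1.24 ± 0.20 (SE, adjusted p = 7.74e-05), while INSIG2, its relative with other control, fell by 0.50 ± 0.18 (SE, adjusted p = 0.0412). Replicate 4 gave the lowest value at both ages in SQLE, HMGCS1, FDFT1 and INSIG1, and d1 replicate 2 the highest at d1. Without d3 replicate 1 or without d1 replicate 4 the list gave 8 higher and none lower, with medians of 0.63 and 0.53, and INSIG2 was also lost without d3 replicates 3 or 4 or d1 replicates 1 or 3 (adjusted p 0.0539 to 0.145 over these 6), in a fit of the 8 arrays alone (0.092) and with no filter (0.0581). Under the 3′ minus 5′ term 6 were called higher, and against hatch 14. Of the 17, 13 were already higher at d1 than at hatch, SQLE by 1.70 ± 0.36 (SE, adjusted p = 0.000643) and MSMO1 by 2.06 ± 0.22 (SE, adjusted p = 2.32e-07), and none rose between d3 and d7. MSMO1 (1.33) and INSIG2 (−0.25) lost their calls with the 3′ minus 5′ term, with adjusted p 0.0554 to 0.706.

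Fatty acid synthesis showed a mixed pattern, while oxidation genes mostly fell. Of 14 synthesis genes tested of 19 on the array, 4 rose and 1 fell, with a median of 0.20. The share called, 35.7%, stood beside 25.7% over all genes. Those that rose were the elongase genes ELOVL6 and ELOVL1, by 0.64 ± 0.14 and 0.51 ± 0.07, PGD, which makes NADPH in the pentose phosphate pathway, by 0.91 ± 0.23 (SE, adjusted p = 0.0043), and FASN, the fatty acid synthase, by 0.80 ± 0.24 (SE, adjusted p = 0.015). The FASN call was lost without d3 replicate 1 or 3 or d1 replicate 4, with adjusted p of 0.0531, 0.0547 and 0.0614. ACACA and ACLY, which supply its building blocks, differed by 0.08 ± 0.23 (SE, adjusted p = 0.855) and 0.01 ± 0.18 (SE, adjusted p = 0.983). ME1, the malic enzyme that supplies NADPH, stood at 7.73, 8.38, 8.11 and 7.98 in the d3 arrays, against 10.27, 10.24, 9.53 and 9.68 in the d1 arrays. Its level fell by 1.88 ± 0.22 (SE, adjusted p = 8.36e-07). Only ME1 was called with the 3′ minus 5′ term. ELOVL6 (0.51), ELOVL1 (0.26), PGD (0.86) and FASN (1.18) lost their calls with the 3′ minus 5′ term, with adjusted p 0.111 to 0.248.

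Of 31 fatty acid oxidation and ketogenesis genes tested of 36 on the array, 17 fell and 1 rose, with a median of −0.40. ACAD11, a mitochondrial dehydrogenase of long-chain acyl-CoA, stood at 8.75, 8.85, 9.11 and 9.10 in the d3 arrays, against 10.27, 10.19, 9.78 and 10.01 in the d1 arrays. The d3 level fell by 1.11 ± 0.19 (SE, adjusted p = 0.000142). CYP4A22 and CYP4V2, which hydroxylate the far end of fatty acids, fell by 1.29 ± 0.27 and 1.15 ± 0.26, the second by 0.75 and without a call in the mean over its probe sets (adjusted p = 0.0944), and ACOX2, a peroxisomal oxidase of branched acyl-CoA and bile acid precursors, by 0.93 ± 0.17 (SE, adjusted p = 0.000201). CPT1A, the gate for fatty acids into mitochondria, ran against its list at 6.44, 6.14, 7.37 and 6.90 in the d3 arrays, against 5.47, 5.36, 4.44 and 4.96 in the d1 arrays. Its level rose by 1.65 ± 0.24 (SE, adjusted p = 1.56e-05) after a fall between hatch and d1 (−2.12 ± 0.24 SE, adjusted p = 3.94e-07). PPARA, the fatty acid sensor that drives oxidation genes, differed by −0.02 ± 0.20 (SE, adjusted p = 0.954), and PDK4, which shifts cells from glucose to fat, by −0.39 ± 0.41 (SE, adjusted p = 0.533). In the fit with the 3′ minus 5′ term 9 fell and none rose, and against hatch 15 fell and 2 rose. CYP4A22 (−1.38), CYP4V2 (−1.24), ACOX2 (−1.03) and CPT1A (0.76) lost their calls with the 3′ minus 5′ term, with adjusted p 0.051 to 0.264.

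Sugar metabolism split by enzyme. Of 29 glycolysis, gluconeogenesis and fructose genes tested of 38 on the array, 4 rose and 10 fell, and the median was −0.06. LDHA, which makes lactate, stood at 13.43, 13.31, 13.11 and 13.18 in the d3 arrays, against 12.36, 12.53, 12.28 and 12.04 in the d1 arrays. The d3 level was higher by 0.96 ± 0.16 (SE, adjusted p = 9.34e-05). PFKP, one form of the gatekeeper of glycolysis, rose by 1.07 ± 0.15 (SE, adjusted p = 8.69e-06), and ALDOC, an aldolase, by 0.74 ± 0.18 (SE, adjusted p = 0.00408). PFKL, the liver form of that gatekeeper, stood at 8.33, 8.49, 7.99 and 7.84 in the d3 arrays, against 9.37, 9.41, 8.97 and 8.90 in the d1 arrays. It fell by 1.00 ± 0.16 (SE, adjusted p = 4.42e-05). FBP1, the reverse step in glucose production, stood at 10.66, 12.04, 10.85 and 11.65 in the d3 arrays, against 12.55, 12.26, 12.46 and 12.64 in the d1 arrays. Its level fell by 1.18 ± 0.26 (SE, adjusted p = 0.00132), with d3 replicates 1 and 3 lowest. PCK2, the mitochondrial form of the enzyme that feeds glucose production, fell by 0.87 ± 0.14 (SE, adjusted p = 8.27e-05), while PCK1, the form in the cytosol, differed by −0.78 ± 0.29 (SE, adjusted p = 0.0523) and passed in a fit of the 8 arrays alone (adjusted p = 0.0167). The fructose enzymes KHK, TKFC and SORD fell by 0.84 ± 0.22, 0.77 ± 0.14 and 0.79 ± 0.15 at the same time as SLC2A5, the fructose carrier, rose by 0.82 ± 0.26 (SE, adjusted p = 0.0233); without d3 replicates 2 or 3 or d1 replicates 3 or 4 the carrier was not called (adjusted p 0.0587 to 0.0959), and with the 3′ minus 5′ term it differed by 0.058. That term left 2 sugar genes higher and 2 lower. ALDOC (0.86), PFKL (−0.79), FBP1 (−1.29), PCK2 (−0.32), KHK (−0.46) and TKFC (−0.75) lost their calls with the 3′ minus 5′ term, with adjusted p 0.0864 to 0.559.

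Among respiratory chain and citric acid cycle genes, 64 of 65 on the array were tested; 12 fell and 1 rose, with a median of −0.09, and the percent called, 20.3, was below that of all genes. NDUFV1, a core subunit of complex I, stood at 10.59, 10.64, 10.66 and 10.73 in the d3 arrays, against 11.25, 11.31, 11.09 and 11.17 in the d1 arrays. The d3 level fell by 0.55 ± 0.10 (SE, adjusted p = 0.000161). SUCLG1, a succinyl-CoA ligase subunit, fell by 0.80 ± 0.21 (SE, adjusted p = 0.00686) and ACO1, an aconitase of the cytosol that also senses iron, by 0.61 ± 0.11 (SE, adjusted p = 0.000204). CYCS, cytochrome c, was the one that rose (0.51 ± 0.13 SE, adjusted p = 0.0064), and the mean over its probe sets gave 0.28 (adjusted p = 0.108). The 3′ minus 5′ term left 10 lower and none higher. Against hatch 39 were lower and none higher. SUCLG1 (−1.0), ACO1 (−0.60) and CYCS (0.31) lost their calls with the 3′ minus 5′ term, with adjusted p 0.0807 to 0.497.

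GAMT, which makes creatine from guanidinoacetate, stood at 3.60, 4.13, 3.64 and 3.72 in the d3 arrays, against 6.83, 7.47, 7.28 and 7.24 in the d1 arrays. It fell by 3.43 ± 0.18 (SE, adjusted p = 9.71e-13). GATM, the step before it, stood at 3.71, 4.74, 3.25 and 3.82 in the d3 arrays, against 5.58, 5.05, 4.32 and 4.83 in the d1 arrays. Its level fell by 1.07 ± 0.29 (SE, adjusted p = 0.00773). The groups were apart for GAMT and overlapped for GATM, whose call was lost in a fit of the 8 arrays alone (adjusted p = 0.0619). At d7 the means were 3.60 ± 0.02 and 3.15 ± 0.48 (± SD, n = 4 arrays). CKB, the creatine kinase that uses the product, rose by 0.50 ± 0.14 (SE, adjusted p = 0.00966). ETNPPL, which breaks down phosphoethanolamine and is outside the list, stood at 6.21, 5.80, 5.86 and 6.73 in the d3 arrays, against 9.10, 9.00, 8.96 and 9.21 in the d1 arrays. The d3 level fell by 2.92 ± 0.46 (SE, adjusted p = 4.64e-05). ASS1, which makes the direct precursor of arginine, stood at 8.17, 7.70, 8.86 and 8.43 in the d3 arrays, against 6.67, 6.35, 6.69 and 6.75 in the d1 arrays. The rise was 1.68 ± 0.34 (SE, adjusted p = 0.00081). XDH, which makes uric acid, rose by 1.32 ± 0.29 (SE, adjusted p = 0.00131). CSAD, an enzyme of taurine synthesis, fell by 0.73 ± 0.11 (SE, adjusted p = 1.86e-05), and KYNU, of tryptophan breakdown, by 1.71 ± 0.58 (SE, adjusted p = 0.0312). KYNU was not called when any one of d3 replicates 1 and 2 or d1 replicates 1, 3 and 4 was left out (adjusted p 0.055 to 0.0879) or with no filter (0.0515). In all 31 genes were tested of 48 on the array, and 4 rose and 8 fell, with a median of −0.09. The share called was 38.7%, against 25.7% over all genes, where 15.0% were higher and 10.7% lower. The number that fell was 5 without d3 replicate 1 or 2 and without d1 replicate 1, 3 or 4, and 5 with the 3′ minus 5′ term, which left none higher. GATM (−1.21), CKB (0.24), ASS1 (1.56) and XDH (0.66) lost their calls with the 3′ minus 5′ term, with adjusted p 0.155 to 0.627.

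Brush border hydrolases, which finish the digestion of food at the enterocyte surface, were lower at d3 or did not pass the test, with 1 exception. Of 25 on the array 22 were tested; 10 fell and 1 rose, with a median of −0.46. TMPRSS15, enteropeptidase, which activates pancreatic trypsin, stood at 8.32, 8.80, 9.05 and 9.36 in the d3 arrays, against 10.51, 10.34, 10.38 and 10.60 in the d1 arrays. It fell by 1.57 ± 0.37 (SE, adjusted p = 0.00296). FOLH1, which trims dietary folate, stood at 6.59, 6.83, 6.36 and 6.90 in the d3 arrays, against 8.27, 8.25, 8.32 and 8.18 in the d1 arrays. Its level fell by 1.58 ± 0.16 (SE, adjusted p = 1.18e-07). ENPP7, alkaline sphingomyelinase, stood at 10.35, 9.56, 10.45 and 10.90 in the d3 arrays, against 11.76, 11.88, 12.13 and 11.78 in the d1 arrays. The d3 level fell by 1.57 ± 0.31 (SE, adjusted p = 0.000599). CUBN, the receptor for vitamin B12 bound to intrinsic factor, fell by 2.07 ± 0.41 (SE, adjusted p = 0.000628), with d3 replicates 1 and 3 at 7.51 and 7.81 and replicates 2 and 4 at 9.60 and 9.12. SI, sucrase-isomaltase, differed by 0.05 ± 0.12 (SE, adjusted p = 0.815), and ANPEP, aminopeptidase N, by 0.09 ± 0.12 (SE, adjusted p = 0.617); the mean over probe sets of SI gave 0.56 and passed (adjusted p = 0.0033). MGAM, maltase-glucoamylase, fell by 0.50 ± 0.18 (SE, adjusted p = 0.047), but was not called without any one of 6 of the 8 arrays (adjusted p 0.0579 to 0.171), in a fit of the 8 arrays alone (0.0597), with no filter (0.0665) or in the mean over its probe sets (0.0582), and turned to 0.17 with the 3′ minus 5′ term. TMPRSS2, a membrane protease, was the one that rose (0.52 ± 0.13 SE, adjusted p = 0.00326). Against hatch 7 were higher and 6 lower. Between hatch and d1 10 of the 22 had risen, ENPP7 by 1.05 ± 0.31 (SE, adjusted p = 0.0107). With the 3′ minus 5′ term 4 fell. ENPP7 (−1.82), CUBN (−1.65) and TMPRSS2 (0.51) lost their calls with the 3′ minus 5′ term, with adjusted p 0.0673 to 0.218.

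The main carriers of sugar, peptides and amino acids did not pass the test. SLC5A1, the sodium-glucose cotransporter, stood at 12.46, 12.67, 12.17 and 12.33 in the d3 arrays, against 12.35, 12.40, 12.34 and 12.08 in the d1 arrays (0.12 ± 0.12 SE, adjusted p = 0.553), and SLC15A1, the peptide carrier, at 14.04, 13.92, 14.15 and 14.14 in the d3 arrays, against 14.21, 14.07, 14.33 and 14.40 in the d1 arrays (−0.19 ± 0.19 SE, adjusted p = 0.507). The mean over probe sets of SLC5A1 gave 0.44 and passed (adjusted p = 0.0158). SLC2A2, which passes glucose to the blood, differed by −0.30 ± 0.31 (SE, adjusted p = 0.536), SLC6A19, the main carrier of neutral amino acids, by −0.53 ± 0.28 (SE, adjusted p = 0.184), SLC1A1, which carries glutamate, by 0.18 ± 0.19 (SE, adjusted p = 0.558) and SLC7A9, part of the cystine carrier, by 0.13 ± 0.20 (SE, adjusted p = 0.69). That these differences did not pass does not show that the ages were alike. Over all solute carriers 166 of 295 were tested; 18 rose and 31 fell, with a median of −0.02. The falls were 20 without d3 replicate 1 or d1 replicate 1, and 8 with the 3′ minus 5′ term, which left 2 rises. The shares called were 29.5% for all solute carriers, 21.05% for sugar and peptide carriers and 26.3% for amino acid carriers. These lie near the 25.7% over all genes. Of 19 sugar and peptide carriers 4 rose and none fell, with 2 rises without d3 replicate 3 or d1 replicate 3 or 4. Of 19 amino acid carriers 1 rose and 4 fell; the falls were 2 without d3 replicate 1 or d1 replicate 1 or 4, and 1 without replicate 3 of either age.

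Several other carriers were called. The largest rise among the solute carriers called was in SLC22A3, an organic cation carrier, which stood at 7.31, 5.97, 7.81 and 7.35 in the d3 arrays, against 4.33, 4.72, 3.89 and 4.97 in the d1 arrays. Its rise was 2.63 ± 0.44 (SE, adjusted p = 0.000113). SLC10A2, the bile acid carrier of the ileum, rose by 1.28 ± 0.35 (SE, adjusted p = 0.00813), and SLC51B, a subunit of the bile acid exporter, by 1.39 ± 0.45 (SE, adjusted p = 0.0248); the second call was lost without d3 replicate 1 or 3 or d1 replicate 3 or 4 (adjusted p 0.0707 to 0.11) and in a fit of the 8 arrays alone (0.0889). SLC16A1, a carrier of lactate and short-chain fatty acids, rose by 0.83 ± 0.14 (SE, adjusted p = 0.000153), and SLC7A5, a carrier of large neutral amino acids in growing and activated cells, by 1.11 ± 0.24 (SE, adjusted p = 0.00117). SLC9A3, the sodium-proton exchanger of the brush border, rose by 0.75 ± 0.22 (SE, adjusted p = 0.0115), a call lost without d3 replicate 3 (adjusted p = 0.0575). Among the falls SLC22A13, a carrier of organic anions, stood at 6.05, 5.78, 4.83 and 4.97 in the d3 arrays, against 7.78, 7.58, 7.01 and 6.87 in the d1 arrays. It fell by 1.90 ± 0.36 (SE, adjusted p = 0.000316). SLC35F2 fell by 1.81 ± 0.34 (SE, adjusted p = 0.000302), SLC25A15, the mitochondrial ornithine carrier, by 1.73 ± 0.31 (SE, adjusted p = 0.000204), SLC39A8, a zinc and manganese importer, by 1.57 ± 0.37 (SE, adjusted p = 0.00312) and SLC23A1, a vitamin C carrier, by 1.51 ± 0.23 (SE, adjusted p = 4.08e-05). SLC16A10, which lets aromatic amino acids out of the cell, fell by 1.07 ± 0.28 (SE, adjusted p = 0.00668), and SLC34A2, the phosphate carrier, by 0.95 ± 0.23 (SE, adjusted p = 0.0043). Of 53 carriers of ions, vitamins and other nutrients tested, 7 rose and 16 fell, with a median of −0.17. Their share called was 43.4%, against 25.7% over all genes, where 15.0% were higher and 10.7% lower. With the 3′ minus 5′ term the rises and falls were 2 and 6, without d3 replicate 3 they were 4 and 14, and against hatch 12 and 10. SLC22A3 (1.31), SLC10A2 (0.70), SLC51B (0.88), SLC16A1 (0.69), SLC7A5 (1.14), SLC9A3 (0.54), SLC22A13 (−1.89), SLC35F2 (−1.85), SLC25A15 (−1.52), SLC16A10 (−0.62) and SLC34A2 (−0.37) lost their calls with the 3′ minus 5′ term, with adjusted p 0.0843 to 0.66.

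Of the lipid absorption genes tested 21.4% were called, near the 25.7% over all genes. Of 36 on the array 28 were tested; 2 rose and 4 fell, with a median of −0.26. The fatty acid-binding protein genes FABP1, FABP2 and FABP6 differed by −0.15 ± 0.50 (SE, adjusted p = 0.87), −0.51 ± 0.23 (SE, adjusted p = 0.119) and −0.20 ± 0.44 (SE, adjusted p = 0.788), and the lipoprotein genes APOB, MTTP and APOA4 by −0.39 ± 0.26 (SE, adjusted p = 0.3), −0.32 ± 0.18 (SE, adjusted p = 0.224) and 0.28 ± 0.22 (SE, adjusted p = 0.391); none passed the test. MOGAT2, which rebuilds triglyceride in the enterocyte, fell by 0.66 ± 0.15 (SE, adjusted p = 0.00216), but by 0.17 and without a call in the mean over its probe sets (adjusted p = 0.2). GPAT3, the first step of the other route, fell by 0.37 ± 0.11 (SE, adjusted p = 0.0173) and was not called without d3 replicate 3 or 4 or d1 replicate 1 or 2 (adjusted p 0.0545 to 0.0629). ACSL5, which activates fatty acids, fell by 0.55 ± 0.18 (SE, adjusted p = 0.0226), a call lost without d3 replicates 3 or 4 or d1 replicates 1 or 2 (adjusted p 0.0515 to 0.0726). PLIN2, the coat of lipid droplets, rose by 0.87 ± 0.15 (SE, adjusted p = 0.000111), and LIPA, the lysosomal lipase, by 0.75 ± 0.17 (SE, adjusted p = 0.00206). APOA2, an apolipoprotein of high-density lipoprotein that is outside the list, stood at 8.60, 7.94, 6.27 and 6.67 in the d3 arrays, against 10.22, 9.52, 9.80 and 10.15 in the d1 arrays. Its level fell by 2.56 ± 0.34 (SE, adjusted p = 6.62e-06), falling further by d7 (−2.53 ± 0.34 SE, adjusted p = 2.22e-05). The list's 4 falls were 1 without d3 replicate 3 and without d1 replicate 1 or 2, and 1 with the 3′ minus 5′ term, which left no rise. GPAT3 (−0.23), ACSL5 (−0.16), PLIN2 (0.36), LIPA (0.81) and APOA2 (−1.85) lost their calls with the 3′ minus 5′ term, with adjusted p 0.0775 to 0.819.

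Genes that handle foreign compounds were more often lower. Of 42 on the array 37 were tested; 15 fell and 1 rose, with a median of −0.47. CYP1A2, a cytochrome P450 induced by aromatic compounds, stood at 8.45, 10.17, 9.41 and 10.01 in the d3 arrays, against 12.95, 12.50, 11.09 and 11.56 in the d1 arrays. The d3 level fell by 2.51 ± 0.62 (SE, adjusted p = 0.00427) after a rise of 5.75 ± 0.62 (SE, adjusted p = 2.89e-07) between hatch and d1. ALDH1A1, which oxidises retinal and other aldehydes, stood at 11.32, 12.56, 11.21 and 10.95 in the d3 arrays, against 14.18, 14.07, 13.70 and 13.93 in the d1 arrays. It fell by 2.46 ± 0.26 (SE, adjusted p = 1.99e-07). The glutathione transferase gene GSTA3 stood at 11.96, 11.03, 12.40 and 11.71 in the d3 arrays, against 14.43, 14.27, 13.74 and 14.20 in the d1 arrays. Its level fell by 2.38 ± 0.26 (SE, adjusted p = 4.08e-07), and GSTT1L, outside the list, by 2.21 ± 0.39 (SE, adjusted p = 0.000155). ADH1C, an alcohol dehydrogenase, stood at 7.61, 9.94, 9.24 and 9.04 in the d3 arrays, against 11.80, 11.44, 11.37 and 11.79 in the d1 arrays. The d3 level fell by 2.64 ± 0.34 (SE, adjusted p = 3.20e-06), with d3 replicate 1 lowest. In each of these the 4 d3 arrays lay below the 4 d1 arrays. Under the 3′ minus 5′ term 10 fell and none rose, and against hatch 12 fell and 5 rose. Other large falls lay outside the lists. TMEM213 stood at 4.15, 4.26, 4.28 and 5.19 in the d3 arrays, against 8.08, 7.91, 7.64 and 7.59 in the d1 arrays. It fell by 3.33 ± 0.32 (SE, adjusted p = 4.91e-08). COL17A1, a collagen that anchors epithelium to its base, fell by 2.28 ± 0.31 (SE, adjusted p = 9.85e-06) and AOC3, an amine oxidase of vessel walls, by 2.35 ± 0.45 (SE, adjusted p = 0.000356). CYP1A2 (−2.98) lost its call with the 3′ minus 5′ term, with adjusted p = 0.133.

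**Figure D4:**
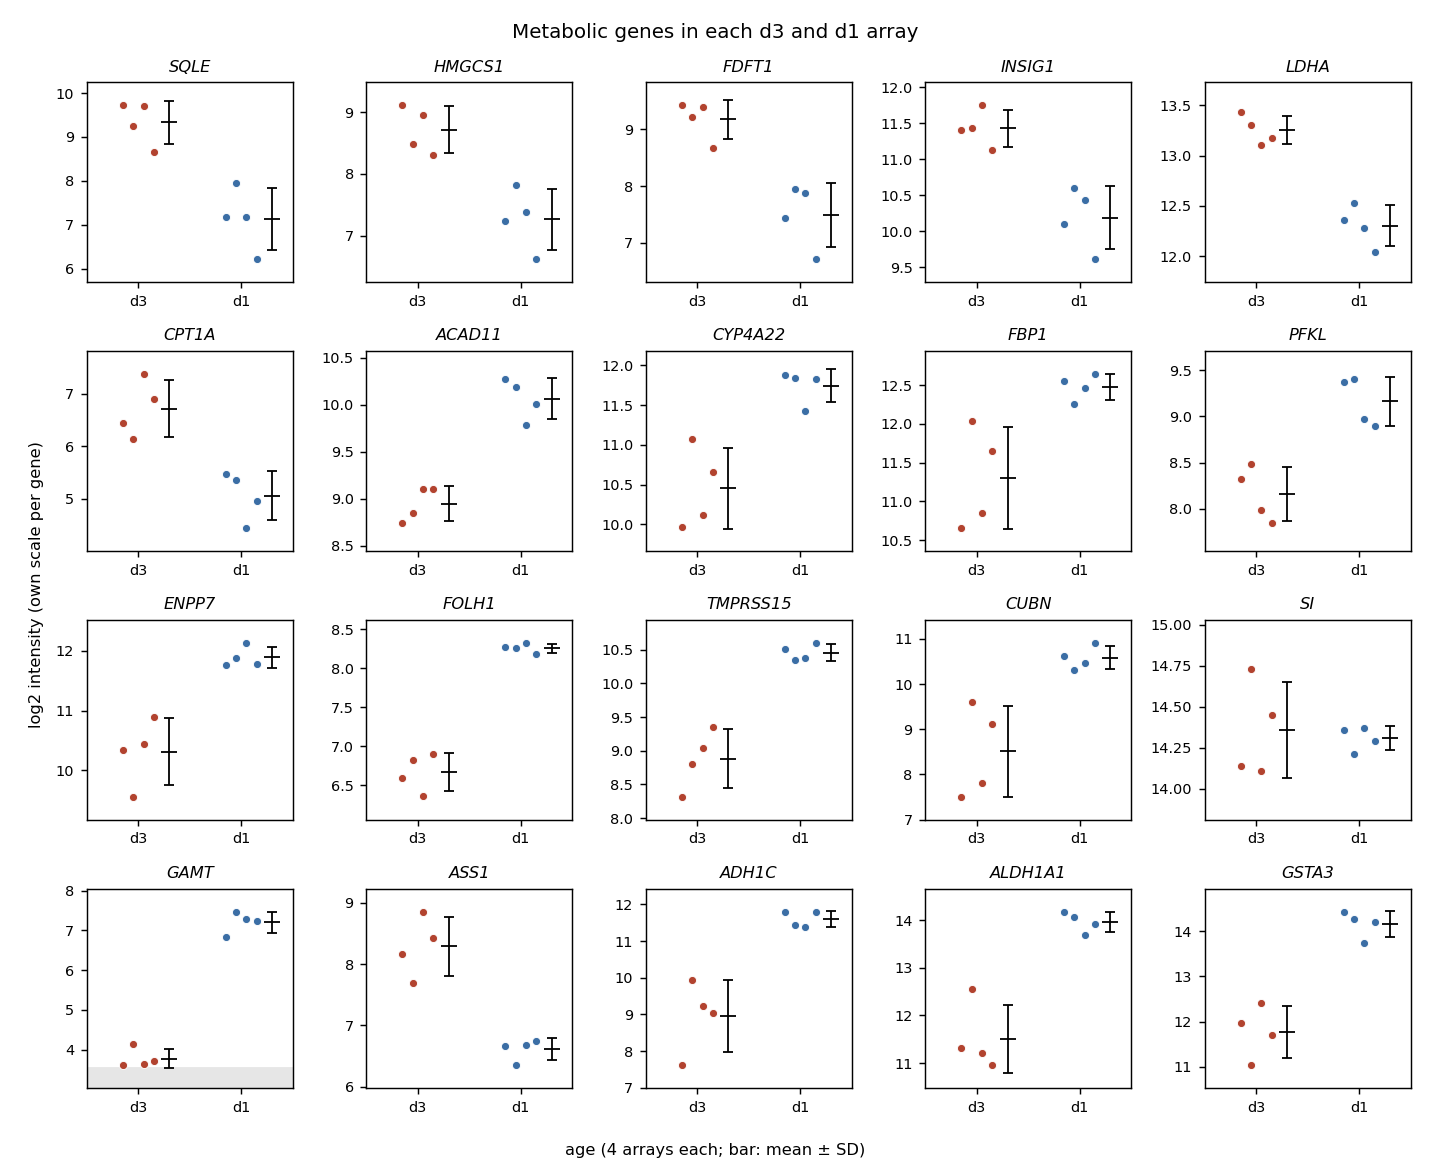
Log2 intensity of 20 metabolic and digestive genes in each array at d3 (red, left) and d1 (blue, right), with the mean ± SD beside the points and each gene on its own scale; grey in the GAMT panel marks the range under the highest background of the 8 arrays, and no point lies in it. The d3 points of SQLE, HMGCS1, FDFT1, INSIG1, LDHA, CPT1A and ASS1 lie above the d1 points, those of SI overlap them, and those of the other 12 genes lie below.

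Cell division genes were more often higher than lower at d3. The share called, 29.4%, was near the 25.7% over all genes, where 15.0% were higher and 10.7% lower. Of 70 replication and mitosis genes on the array 68 were tested; 20 rose and none fell, with a median of 0.30. CDK1, the kinase that starts mitosis, stood at 10.79, 10.66, 10.99 and 10.98 in the d3 arrays, against 9.76, 10.10, 9.94 and 9.91 in the d1 arrays. Its level rose by 0.93 ± 0.10 (SE, adjusted p = 2.36e-07). PCNA, the sliding clamp, rose by 1.09 ± 0.18 (SE, adjusted p = 0.000116) and BIRC5, a mitosis regulator, by 1.07 ± 0.18 (SE, adjusted p = 0.000129), whereas MKI67 (0.06 ± 0.16 SE, adjusted p = 0.83), TOP2A (0.12 ± 0.19 SE, adjusted p = 0.698) and MCM2 (0.40 ± 0.17 SE, adjusted p = 0.0926) did not pass the test, although MCM2 did in a fit of the 8 arrays alone (adjusted p = 0.0209). The replication helicase gene MCM6 rose by 1.13 ± 0.14 (SE, adjusted p = 2.68e-06), but the mean over its probe sets gave 0.23 (adjusted p = 0.142). Between hatch and d1 40 of the 68 had fallen and none risen, and between d3 and d7 43 fell and none rose. Against hatch 1 was higher at d3 and 12 lower, with a median of −0.22, and with the 3′ minus 5′ term 3 were called higher. PCNA (0.48), BIRC5 (0.86) and MCM6 (0.62) lost their calls with the 3′ minus 5′ term, with adjusted p 0.116 to 0.391.

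Crypt and enteroendocrine lists had 15.4% and 23.5% of their tested genes called, which is no more than the 25.7% over all genes. OLFM4, a marker of crypt base cells in mammals, stood at 12.76, 12.53, 12.96 and 12.92 in the d3 arrays, against 10.62, 10.88, 10.65 and 10.57 in the d1 arrays. The d3 level was higher by 2.11 ± 0.16 (SE, adjusted p = 7.71e-10), while the stem cell gene LGR5 (−0.48 ± 0.22 SE, adjusted p = 0.111) and SOX9 (−0.07 ± 0.11 SE, adjusted p = 0.7) did not pass the test; of 26 crypt genes 3 rose and 1 fell. Of 9 goblet cell genes tested 5 rose and none fell, with a median of 1.23: CLCA1, secreted with mucus, by 1.42 ± 0.32 (SE, adjusted p = 0.00189), AGR2, which folds mucins, by 1.23 ± 0.18 (SE, adjusted p = 1.77e-05), GALNT12, which starts mucin sugar chains, by 1.26 ± 0.17 (SE, adjusted p = 7.47e-06), and the factor SPDEF and the mucus protein FCGBP by 0.93 ± 0.23 and 0.55 ± 0.16. FCGBP was not called without d3 replicate 3 (adjusted p = 0.0611). The share of goblet cell genes called was 55.6%, against 25.7% over all genes. Of 14 goblet cell genes on the array, those below the filter and not tested included the mucin gene MUC2, ATOH1 and ST6GALNAC1. The mean of MUC2 was 3.48 at d3 and 2.90 at d1. ST6GALNAC1 ran the other way, with means of 2.99 at d3 and 4.30 at d1. Of the 9 goblet cell genes tested 4 did not pass the test. Against hatch 3 were higher at d3 and none lower, with a median of 0.44. Between hatch and d1 2 had risen and 3 fallen, with a median of −0.35. In the fit with the 3′ minus 5′ term no goblet cell gene was called. Among 17 enteroendocrine genes 3 rose and 1 fell: TAC1, the substance P precursor also made by enteric neurons, stood at 9.69, 9.52, 9.32 and 8.85 in the d3 arrays, against 7.66, 7.70, 7.59 and 7.72 in the d1 arrays. The rise was 1.68 ± 0.18 (SE, adjusted p = 3.23e-07). The hormone processing gene PCSK1 rose by 1.33 ± 0.20 (SE, adjusted p = 2.35e-05), while its relative PCSK2 fell by 0.69 ± 0.16 (SE, adjusted p = 0.00281), with −0.35 in the mean over its probe sets (adjusted p = 0.118). The hormone CCK differed by −0.22 ± 0.24 (SE, adjusted p = 0.559). CDHR5, which links the tips of microvilli, stood at 7.16, 7.14, 8.39 and 7.95 in the d3 arrays, against 5.68, 5.08, 5.24 and 4.15 in the d1 arrays. Its rise was 2.63 ± 0.35 (SE, adjusted p = 6.50e-06), the largest rise among 9 higher and 2 lower of 27 enterocyte cytoskeleton and junction genes. The share of these called was 40.7%, against 25.7% over all genes, and with the 3′ minus 5′ term 2 were higher. CLCA1 (0.83), AGR2 (0.93), GALNT12 (0.64), SPDEF (0.60), FCGBP (0.58), PCSK1 (1.19), PCSK2 (−0.27) and CDHR5 (1.40) lost their calls with the 3′ minus 5′ term, with adjusted p 0.0572 to 0.639.

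Of the ribosomal protein genes tested 26.2% were called, near the 25.7% over all genes. More of them were lower than higher, by small amounts, where over all genes 15.0% were higher and 10.7% lower. Of 61 tested 15 fell and 1 rose, with a median of −0.14; RPL36 fell by 0.42 ± 0.11 (SE, adjusted p = 0.00584), RPS12 by 0.31 ± 0.07 (SE, adjusted p = 0.00326) and RPLP1 by 0.32 ± 0.07 (SE, adjusted p = 0.0025), while RPS6 differed by −0.04 ± 0.06 (SE, adjusted p = 0.718) and RPL3 by −0.02 ± 0.07 (SE, adjusted p = 0.894). RPLP1 was not called in a fit of the 8 arrays alone (adjusted p = 0.0505), and the mean over its probe sets gave −0.12 (0.189). The number that fell was 29 after centring each array on its median, 25 with no filter, 5 in a fit of the 8 arrays alone, 9 without d1 replicate 4, 2 with the 3′ minus 5′ term and 57 against hatch. RPL36 (−0.18), RPS12 (−0.42) and RPLP1 (−0.17) lost their calls with the 3′ minus 5′ term, with adjusted p 0.0696 to 0.641.

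Markers of the other cells of the gut wall were called at shares on both sides of the 25.7% over all genes. The shares were 21.4% for smooth muscle, 29.6% for fibroblast and matrix, 35.3% for neuron and glia and 18.8% for endothelial genes. Of 14 smooth muscle genes 3 rose and none fell, with a median of 0.14. The difference was positive in 11 and negative in 3. MYH11, the smooth muscle myosin, was among the negative ones at −0.29 ± 0.14 (SE, adjusted p = 0.129). Of 27 fibroblast and matrix genes 1 rose and 7 fell: COL1A1, the chain of type I collagen, fell by 0.48 ± 0.14 (SE, adjusted p = 0.0162) but was lost without d3 replicate 3 (adjusted p = 0.0861), COL6A3 by 0.72 ± 0.18 (SE, adjusted p = 0.00383) and COL14A1 by 0.99 ± 0.22 (SE, adjusted p = 0.00172), whereas DCN (0.06 ± 0.09 SE, adjusted p = 0.733) and COL3A1 (−0.04 ± 0.07 SE, adjusted p = 0.732) did not pass the test; the mean over probe sets of COL3A1 gave 0.49 (adjusted p = 0.00276). The 7 falls were 4 without d3 replicate 3 and without d1 replicate 3 or 4, and none with the 3′ minus 5′ term, and the mean over a gene's probe sets gave 5 rises and 5 falls. Of 17 neuron and glia genes 6 fell and none rose, among them STMN2 by 0.77 ± 0.21 (SE, adjusted p = 0.00914) and ELAVL4 by 1.09 ± 0.19 (SE, adjusted p = 0.000123), both of neurons; the count was 3 without d3 replicate 3 or d1 replicate 1, none with the 3′ minus 5′ term and 10 against hatch. Of 16 endothelial genes 2 rose and 1 fell, with a median of −0.03, and the difference was positive in 6 and negative in 10. CDH5, the junction cadherin of vessels, differed by −0.22 ± 0.13 (SE, adjusted p = 0.24). Among 8 genes of liver and yolk sac, FGG, a fibrinogen chain, stood at 5.35, 6.24, 8.34 and 6.12 in the d3 arrays, against 2.80, 2.83, 2.91 and 2.92 in the d1 arrays. It was at least 8.31-fold higher (adjusted p = 1.24e-07). TF (transferrin) rose by 0.45 ± 0.10 (SE, adjusted p = 0.00132), and 5 fell, among them TTR, a thyroid hormone carrier, by 2.82 ± 0.82 (SE, adjusted p = 0.0134), HPX, which binds heme, by 2.43 ± 0.55 (SE, adjusted p = 0.00187), FETUB by 1.90 ± 0.36 (SE, adjusted p = 0.000414) and VTN, a matrix and plasma protein, by 1.60 ± 0.28 (SE, adjusted p = 0.000171); TTR was not called without d1 replicate 3 or 4 (adjusted p = 0.0573 and 0.0507). That list had 1 higher and 2 lower with the 3′ minus 5′ term. ALB, the albumin gene, was above background in 1 d3 array only, replicate 2 at 6.04. None of the 14 exocrine pancreas genes was called at an adjusted p under 0.05. At e18 13 to 14 of them were above background, against 5 to 12 at d3 and 3 to 10 at d1. Members near the floor at both ages can show little difference. COL1A1 (0.28), COL6A3 (−0.50), COL14A1 (−0.97), STMN2 (−1.0), ELAVL4 (−0.19), TF (0.28), TTR (−2.40), HPX (−0.63) and VTN (−1.21) lost their calls with the 3′ minus 5′ term, with adjusted p 0.138 to 0.75.

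The change from d1 to d3 was also set against the change in the interval before and after it. The d1 arrays, with the largest 3′ minus 5′ differences of the series, enter both changes in the comparison with the interval before. The d3 arrays enter both in the comparison with the interval after. Neither comparison is given with the 3′ minus 5′ term, and the part of RNA quality was not tested. The difference between the change from d1 to d3 and that from hatch to d1 passed the test for 2377 genes (28.3%; 18.3% higher, 10.0% lower), and the difference from the change from d3 to d7 for 1108 (13.2%; 8.74% higher, 4.45% lower). For the second test 17 of the 28 interferon genes passed with the d1 to d3 change higher and none lower, as did 35 of the 68 replication genes, 6 of the 17 cholesterol genes and 1 of the 13 T cell genes. The d1 to d3 change was lower than the next one for 11 of the 31 fatty acid oxidation genes, 11 of the 37 xenobiotic genes, 7 of the 22 hydrolases and 3 of the 7 B cell genes. GZMA averaged 2.65 ± 0.06 at hatch, 2.70 ± 0.18 at d1, 8.88 ± 0.80 at d3, 11.25 ± 0.58 at d7 and 11.99 ± 0.16 at d14 (mean ± SD, n = 4 arrays). NOXO1 had its highest mean at d3, at 8.46 ± 0.89 against 3.13 ± 0.15 at d1 and 4.49 ± 1.75 at d7. PCNA ran through 11.28 ± 0.15 at hatch, 9.79 ± 0.27 at d1, 10.87 ± 0.17 at d3 and 10.30 ± 0.32 at d7. GAMT averaged 8.36 ± 0.20 at hatch, 7.21 ± 0.27 at d1, 3.77 ± 0.24 at d3, 3.60 ± 0.02 at d7 and 3.62 ± 0.12 at d14.

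**Figure D5:**
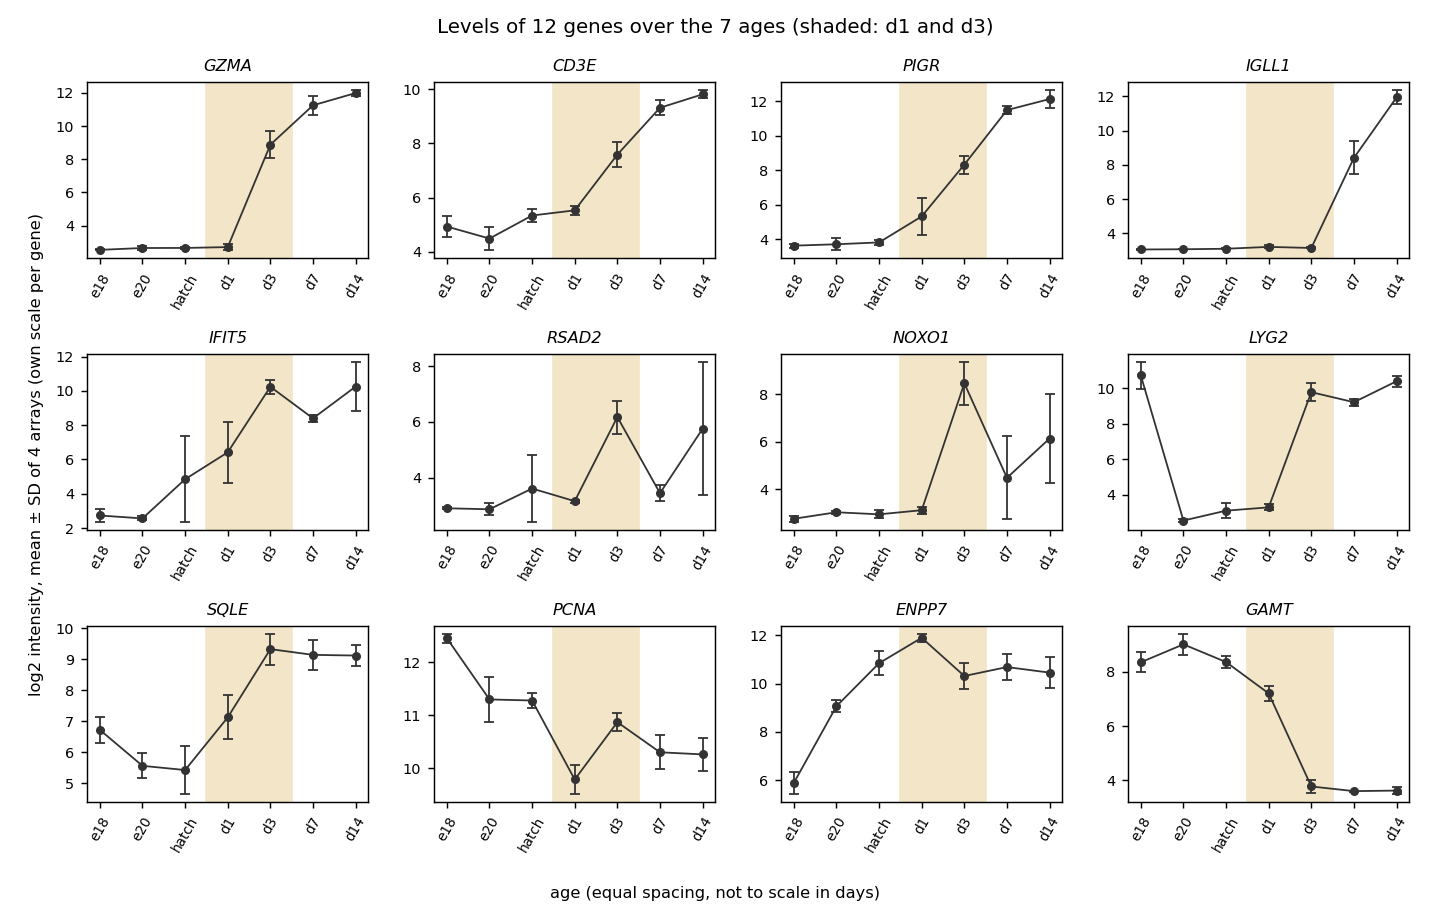
Log2 intensity (mean ± SD of 4 arrays, own scale per gene) of 12 genes at the 7 ages from e18 to d14, with d1 and d3 shaded. GZMA, CD3E and PIGR climb through d3 and on to d7, IGLL1 first rises at d7, RSAD2 and NOXO1 have their highest means at d3 and vary widely at d14, and PCNA dips at d1.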

How the data were processed

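RNA from chick intestine was measured on Affymetrix chicken arrays, 28 in all, 4 at each of 7 ages. The deposited values are probe set intensities on a linear scale that the authors made with GCRMA, per the submitters' processing notes; GCRMA corrects background by probe sequence and by default quantile-normalizes arrays, so values near the floor have little order. Its version is not given in the sources used here. Log2 was taken of these intensities. Of 38535 probe sets, 153 controls were left out. Of the rest 27168 were listed with 1 gene symbol, 177 with several and 11037 with none. Gene symbols came from the platform annotation, and 26863 of its gene IDs were in the RefSeq table. Each of 13009 named genes was represented by the probe set with the highest mean, and the 8396 genes over log2 4 on 4 arrays or more were tested.

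One mean per age was fitted over the 28 arrays with limma 3.58.1 in R 4.3.3 (21 residual and 3.13 prior degrees of freedom), with two-sided tests and Benjamini-Hochberg adjustment over all genes; a gene was called at an adjusted p under 0.05. Errors of differences are standard errors of this fit. Where all 4 arrays of an age were at or below background, a fold is a lower bound against the background of those arrays. No array held the same values as another (highest correlation 0.994). The members and lists were chosen with earlier results of these data known. Genes to name were picked by a rule. It took the 12 largest called rises and 12 largest falls whose groups did not overlap, and key members of each list. It added up to 4 further called members a list in each direction, and 5 solute carriers in each direction. Not all of these genes are described in the text. Those left out include TFF3, CALB1, BCO1, CD36, RBP2 and ANGPTL4, which were not called. They also include RBP7, ASNS, GLUL, DLL1, CLDN1 and ACTC1, which were called. Genes below the filter are named as such. Among the 246 genes of this rule, 92 had several probe sets tested. Opposite calls were counted only for the 198 genes that were called. For 1 of these, SLC7A6, another probe set was called in the opposite direction. Genes that were not called, such as COL3A1, could not enter that count. Each array was left out in turn, and 11 planned and 2 added alternatives were run.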

Additional observations from a re-analysis of the deposited data

Results flagged for a closer look

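In 492 groups of 4 arrays (246 named genes at d3 and at d1), 22 held 1 array that stood apart from its 3 fellows by Dixon's criterion, or 4.47%; chance gives about 1 in 20. The largest gaps were in genes of other organs. CPA1 and CPB1, pancreatic enzymes, stood at 6.03 and 5.50 in d3 replicate 1, and the other 3 d3 arrays lay at 2.43 to 2.54 and at 2.34 to 2.35. ALB, albumin, stood at 6.04 in d3 replicate 2 and at 2.83 to 2.86 in the other 3.

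Among immune genes, d3 replicate 4 was lowest for NOXO1 at 7.14 and d3 replicate 2 for IL15 at 11.26. At d1, CD3E was highest in replicate 3 at 5.77, IL15 in replicate 1 at 11.32, and IL2RG and ITGB2 in replicate 4 at 3.69 and 4.76. SOCS1 was lowest in d1 replicate 1 at 4.19, and ACOD1L in d1 replicate 4 at 2.29, all d1 arrays of ACOD1L being below background.

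Among the other genes, AGR2 was highest in d3 replicate 3 at 13.66 and TMEM213 in d3 replicate 4 at 5.19, while ALDOC was lowest in d3 replicate 4 at 11.39 and ELN, the elastin gene, in d3 replicate 3 at 9.13. At d1, AHCY and LGR5 were highest in replicate 4 at 10.31 and 5.15, and SPDEF and XBP1 in replicate 2 at 3.80 and 11.35. FASN and SLC5A1 were lowest in d1 replicate 4 at 5.88 and 12.08, and CYP4A22 in d1 replicate 3 at 11.43.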

How the results depend on the processing

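No paired analysis was possible because the labels give the arrays no replicate numbers. The fit had no term for line or pool, or for the split of replicates 1 and 2 from 3 and 4. It treated the 4 arrays of an age as separate replicates, and that split is part of the spread behind its errors and p-values. With the 3′ minus 5′ difference as a term 557 genes were called, 282 higher and 275 lower (2160, 1263 and 897 as reported); immune members numbered 29 higher and 1 lower, and metabolic members 11 higher and 49 lower. With hatch in place of d1, 1865 genes were lower, 40.4% of calls were higher, immune members lower numbered 1 and metabolic members higher 70. Rises made up 58.5% of calls as reported, 47.0% after quantile normalization and 45.8% after median centring, which moved the median of all genes by about 0.05. Without the filter 5 immune members were lower, and 1966 genes were higher at d1 than at hatch (1051 as reported). Leaving out 1 array gave 1622 to 2093 calls, 980 to 1224 higher and 642 to 869 lower (56.9% to 62.5% higher), with 67 to 73 immune members higher, 2 to 3 lower, 30 to 41 metabolic members higher and 72 to 91 lower. The sign turned with the 3′ minus 5′ term for 8 called genes: AKR1D1 (−0.25), COL1A1 (0.28), MGAM (0.17), NOTCH1 (0.41), PECAM1 (−0.13), RPS2 (−0.085), SLC38A1 (0.21) and TGFB2 (0.032). It turned with the mean over probe sets for COL3A1 (0.49) and SLC7A6 (0.34). Of 198 called genes named by the rule, the term ended the call of 120 with the sign kept, apart from the 8 whose sign turned. A call could end with a larger difference than in the main fit, as for EPSTI1 (4.04 ± 1.25 SE with the term). It could also end with a smaller one, as for C1QB (0.60 ± 0.44 SE). Leaving out d3 replicate 3 ended the call of 33 and any other array that of 11 to 28. The fit of the 8 arrays alone ended 18, no filter 12, leaving out e18 6, quantile normalization 5 and centring 4, and the mean over probe sets ended 17 of 192. The cause was not tested. Signal over background limits the genes at or below it, whose folds are bounds.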

Other observations

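Of 2557 probe sets over the filter for which no gene was listed, 205 were higher and 273 lower at d3 than at d1 (18.7%, limma, Benjamini-Hochberg, adjusted p under 0.05). They were tested apart from the named genes and belong to no list.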
